A study of Drosophila melanogaster with 6 samples.

Results

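Drosophila has 6 well-studied receptor-type protein tyrosine phosphatases, encoded by Lar, Ptp69D, Ptp99A, Ptp10D, Ptp4E and Ptp52F, and their transcripts were followed here in wild-type L3 neurons and in L3 neurons mutant for the transcription factor dFezf. They were picked by gene symbol in the authors' deposited comparison, and all 6 had a row among its 13727 genes and an adjusted p among its 9387 tested genes. L3 neurons belong to the lamina, the neuropil that receives the axons of most photoreceptors of the fly eye. Fluorescently labelled L3 cells of pupae 24 h past puparium formation had been sorted out of the optic lobes, and their total RNA was sequenced. The 3 WT samples carry FRT40 in their titles, the name of a recombination site used for making mosaic animals, and the 3 dFezf1 samples are named for an allele of the gene for dFezf, also called earmuff (erm). The driver that labelled the cells, the number of animals per sample and the ages of any clones are not given in the sources used here. Sample titles carry dates of 28 to 30 November for WT and of 12 to 14 December for dFezf1, so genotype and title date cannot be told apart.

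A receptor tyrosine phosphatase spans the membrane once. Its outer part carries immunoglobulin or fibronectin type III repeats that meet ligands on other cells or in the matrix, and its inner part removes phosphate from tyrosines that kinases such as Abl have added. In the fly these receptors are best known for steering motor axons and for matching photoreceptor axons to their layers in the optic lobe, where members overlap in function. Lar is needed for photoreceptor axons to hold their targets and binds the heparan sulfate proteoglycans Sdc and dlp. Ptp69D also acts in photoreceptor axon targeting, and Ptp99A and Ptp52F act with the others in motor axon guidance. Ptp10D and Ptp4E are closely related to each other and limit receptor tyrosine kinase signals in tracheal tubes.

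The values below are the authors' own. Their table gives a mean abundance for each group, with no spread and no stated unit, which behaved as a value per transcript length. It also lists a normalized count averaged over all libraries, and a log2 fold change of dFezf1 over WT with its standard error (SE). That fold change is shrunken, meaning pulled toward 0 where reads are few. A gene was called where the authors' adjusted p was under 0.05. Values per library were not used here, because the column codes match no sample label, so depth per library is not given and the SE is the measure of error. By the authors' deposited table the neuronal gene elav had a mean abundance of 52.6 in WT and 63.6 in dFezf1, and erm, the mutated gene itself, had 55.1 and 49.2. erm had a log2 fold change of -0.03 ± 0.30 (SE, adjusted p = 0.986) by the authors' deposited table, so its transcript level does not check the genotype labels. The 5 genes listed as L3 markers (erm, Lim1, sdk, dac and NetB) summed to 114 in WT and 68.2 in dFezf1 over the authors' means. Of these 1 was called, NetB, lower. Its means of 31.5 in WT and 0.119 in dFezf1 made up the largest part of that fall. dac had 26.9 and 17.6, and sdk, the 1 gene with a positive fold change, had 0.475 and 1.20. Lim1 was near 0 in WT and in dFezf1 by the authors' deposited table (0.0895 and 0.00513).

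Ptp99A was the receptor phosphatase with the highest level in these neurons and the only one of the 6 that was called. Ptp99A encodes a receptor with fibronectin repeats outside the cell and a pair of phosphatase domains inside, the second of which is inactive. Its mean abundance by the authors' deposited table stood at 26.6 in WT and at 110 in dFezf1, a ratio of 4.14. Ptp99A rose by 2.03 ± 0.34 (SE) in log2 units by the authors' deposited table, with an adjusted p of 1.66e-07. The 95% interval of that shrunken change runs from 1.38 to 2.69, which is a fold of 2.60 to 6.47. Shrinkage hardly touched this gene, since the log2 ratio of the authors' 2 group means was 2.05.

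Across the whole comparison 6.82% of tested genes were called by the authors' deposited table, made up of 4.33% of tested genes that were higher in dFezf1 and 2.49% that were lower. Set beside this, 1 of 6 receptor phosphatase genes was higher and 0 were lower, a count too small to be read as a share. Under the other call rules tried, the share of tested genes called was 5.05% at an adjusted p under 0.01, 5.07% at a mean normalized count of 100 or more, 6.46% with no filter on low counts, 3.82% where the 95% interval must exclude 0 and 3.19% among genes above 0 in both groups, and Ptp99A was the one receptor gene called each time. The median log2 fold change of the 6 genes was 0.59 by the authors' deposited table, against 0.03 over all tested genes, and 0.64 without Ptp52F, which is listed at 0 in WT. Among genes that the authors labelled for cell surface the median was 0.17. It was 0.26 among the 14 tested genes labelled for both cell surface and phosphatase activity, which include these 6. These medians were not tested against each other. A positive fold change was listed for 5 of the 6 by the authors' deposited table, but the 95% intervals of 5 of the 6 held 0.

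**Figure D1:**
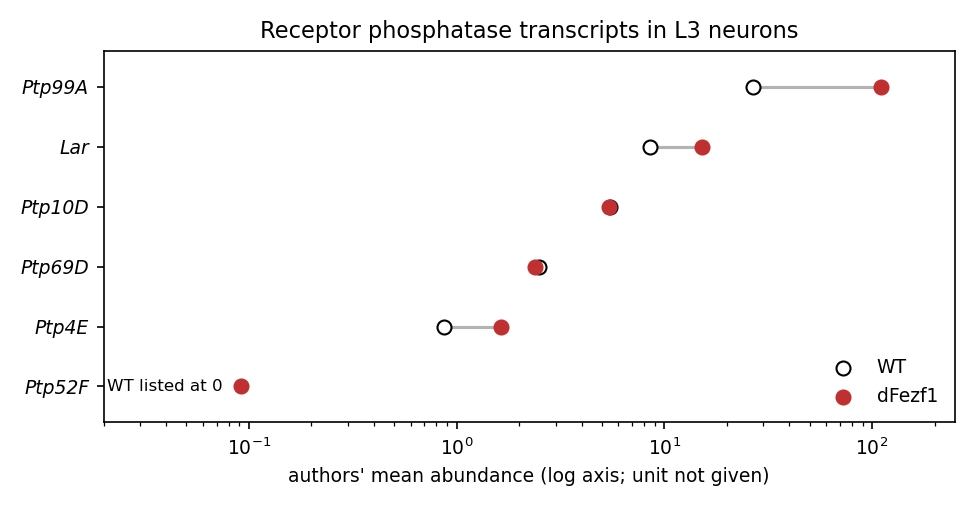
The authors' mean abundance of each receptor phosphatase gene on a log axis, with open circles for WT and filled circles for dFezf1 (each the authors' mean, with no spread given). Ptp99A moves from 26.6 to 110, Ptp10D and Ptp69D lie almost on top of themselves, and Ptp52F is listed at 0 in WT.

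The order of the 6 genes by level was the same in both groups. In WT of the authors' deposited table Ptp99A (26.6) was followed by Lar (8.51), Ptp10D (5.46), Ptp69D (2.51), Ptp4E (0.872) and Ptp52F (listed at 0). In dFezf1 of the same deposited table the mean abundances were 110, 15.2, 5.40, 2.38, 1.64 and 0.0918 in that order. The group means carry no spread, so which neighbours in this order differ was not tested. Summed over the 6 genes, the authors' mean abundance stood at 44.0 in WT and at 135 in dFezf1. Without Ptp99A the sums of the authors' means were 17.3 and 24.7. Ptp99A made up 60.6% of the summed authors' means in WT and 81.7% in dFezf1, while Lar made up 19.3% and 11.3%.

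Lar had the next highest level and was not called. Its product carries immunoglobulin and fibronectin repeats and is the fly member of the LAR family, whose partners include the liprins. By the authors' deposited table its mean abundance stood at 8.51 in WT and at 15.2 in dFezf1, a ratio of 1.79. Lar had a log2 fold change of 0.76 ± 0.44 (SE) by the authors' deposited table, an unadjusted p of 0.0885 and an adjusted p of 0.444. Its 95% interval, from -0.11 to 1.63, holds no change as well as a 3.09-fold rise. Whether Ptp99A and Lar changed by different amounts was not tested, because the deposited table gives no covariance between genes.

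Ptp69D and Ptp10D were listed at nearly equal levels in both groups. Ptp69D, an immunoglobulin and fibronectin repeat receptor, had a mean abundance of 2.51 in WT and 2.38 in dFezf1 by the authors' deposited table. Its log2 fold change by the authors' deposited table was -0.01 ± 0.63 (SE, adjusted p = 0.998). Ptp10D, whose outer part is a long row of fibronectin repeats, had mean abundances of 5.46 and 5.40 and a log2 fold change of 0.01 ± 0.61 (SE, adjusted p = 0.997) by the authors' deposited table. Equal means do not show equal expression here. The 95% interval was -1.23 to 1.22 for Ptp69D and -1.18 to 1.20 for Ptp10D, so neither a halving nor a doubling lies outside it.

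Ptp4E and Ptp52F were at the low end. Ptp4E, the close relative of Ptp10D, had a mean abundance of 0.872 in WT and 1.64 in dFezf1 and a log2 fold change of 0.64 ± 0.70 (SE, adjusted p = 0.767) by the authors' deposited table. Its 95% interval ran from -0.73 to 2.01. Ptp52F, a receptor with fibronectin repeats that acts in motor and central axons, was listed at 0 in WT and reached a mean normalized count of 7.10 over all libraries by the authors' deposited table. In dFezf1 its mean abundance by the authors' deposited table was 0.0918, and no fold is given against a group listed at 0. It was not called (adjusted p = 0.442 by the authors' deposited table), and at this count a difference was not detectable.

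**Figure D2:**
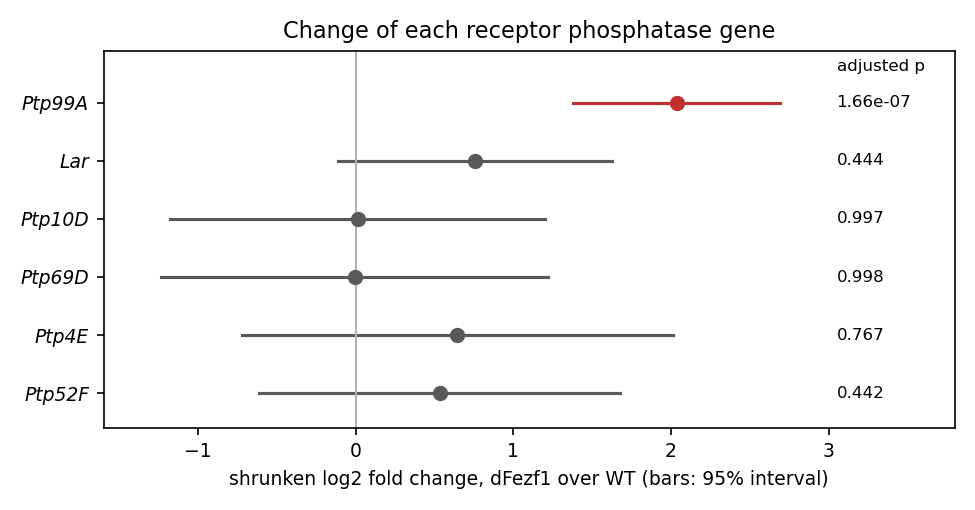
Shrunken log2 fold change of dFezf1 over WT for each receptor phosphatase gene (points) with its 95% interval (bars, normal, from the deposited SE) and the authors' adjusted p at the right. Only the bar of Ptp99A, in red, lies clear of 0, from 1.38 to 2.69.

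How wide each interval is depends on read number, on how much the libraries varied and, where reads are few, on the shrinkage. For scale, the SE of each gene was set beside the median SE of 200 tested genes around it in rank by mean normalized count. For Ptp99A the SE of 0.34 was close to the 0.33 of its neighbours. Those neighbours were the genes at the top of the count range, from 9520 to 3168432, so they are not of like depth. Ptp10D had an SE of 0.61 against 0.43, and 96.5% of its 200 neighbours had a smaller one. For Lar the values were 0.44 and 0.35, with 89.5% of neighbours below it, and for Ptp69D 0.63 and 0.55, with 75.5% below. Ptp4E and Ptp52F had SEs of 0.70 and 0.58, against 0.70 and 0.58 for their neighbours. Lar, Ptp10D and Ptp69D were thus measured less precisely than at least 75.5% of genes of like depth. Ptp99A, Ptp4E and Ptp52F lay near the median of their neighbours. Ptp52F, at a mean normalized count of 7.10, had a smaller SE than Ptp69D at 902, so its SE does not rank its precision.

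In read number Ptp99A stood near the top of the whole table. Its mean normalized count of 27858 by the authors' deposited table ranked 52 of 9387 tested genes, with Lar (5344) at 443, Ptp10D (2256) at 996, Ptp69D (902) at 2149, Ptp4E (372) at 3653 and Ptp52F at 8388. Counts grow with transcript length, and by the length-scaled mean abundance Ptp99A ranked 909 of 9387 in WT and 239 in dFezf1. By p-value Ptp99A ranked 78 of 9387 by the authors' deposited table. Of the 52 tested genes with a count at least as high, 5 were called, 3 higher and 2 lower.

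**Figure D3:**
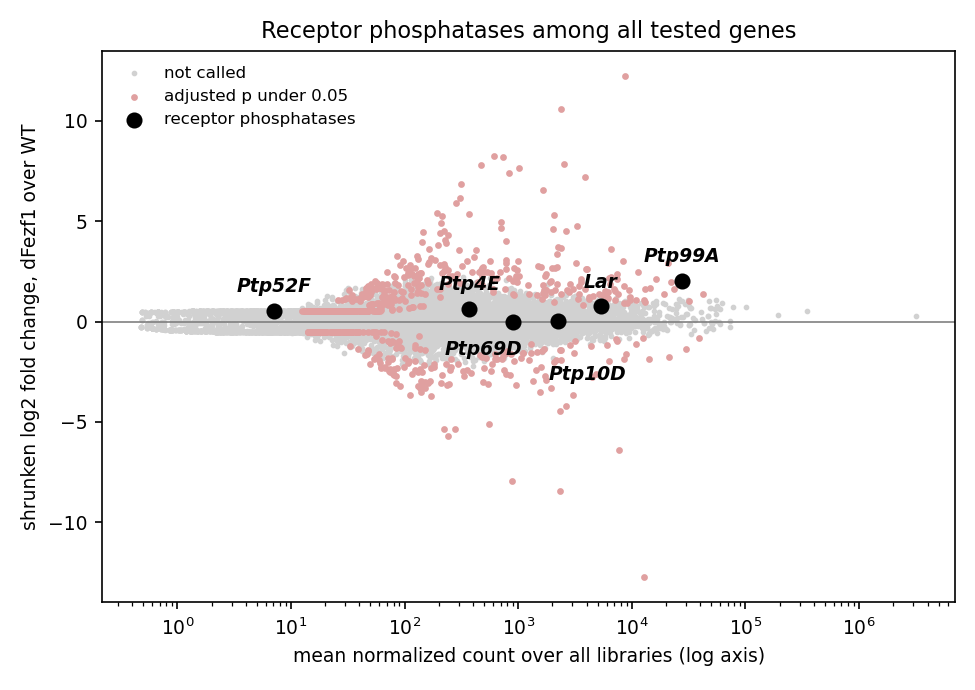
Shrunken log2 fold change of dFezf1 over WT against mean normalized count (log axis) for the 9387 tested genes of the authors' deposited table, with called genes in pink and the 6 receptor phosphatase genes in black. Ptp99A, at 27858 counts and a log2 fold change of 2.03, lies toward the right of the cloud and above most of it, and the other 5 lie within it.

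The authors had sorted genes into functional categories, and these place the receptors among other phosphatases and surface proteins. All 6 carry the labels for cell surface and for phosphatase activity, and Lar also carries that for synapse. Of 136 tested genes labelled for phosphatase activity, 9 were called by the authors' deposited table (6.62%), 7 higher and 2 lower. Within that category Ptp99A ranked 1 by mean normalized count and 2 by p-value. Its mean abundance by the authors' deposited table ranked 10 of the 136 in WT and 3 in dFezf1. Of 644 tested cell surface genes, 107 were called by the authors' deposited table (16.6%), 67 higher and 40 lower, and Ptp99A ranked 27 by p-value. Its mean abundance ranked 36 of the 644 in WT and 7 in dFezf1. These shares describe the categories and were not tested.

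The genes differ greatly in build, which bears on how reads can be assigned to them. In the annotation of build BDGP6, Ptp99A (FBgn0004369) lies on chromosome 3R from 29377646 to 29487131 on the plus strand. It spans 109 kb, of which 8.35% is exon, and its 5 annotated transcripts encode proteins of 922 to 1397 codons. Lar (FBgn0000464), on chromosome 2L from 19586623 to 19732069 on the plus strand, is the longest at 145 kb, with 7 transcripts of 1912 to 2032 codons. Ptp10D (FBgn0004370, X, 11622015 to 11677338, plus strand) spans 55.3 kb, and its longest intron takes up 40.5 kb. Ptp4E (FBgn0004368, X, 4939128 to 4955916, plus strand) spans 16.8 kb and has 7 transcripts. The compact members are Ptp52F (FBgn0034085, 2R, 16171112 to 16178307, minus strand) at 7.20 kb and Ptp69D (FBgn0014007, 3L, 12734945 to 12741568, plus strand) at 6.62 kb, of which 78.0% is exon. The deposited table has 1 row per gene, so a change between isoforms cannot be seen.

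**Figure D4:**
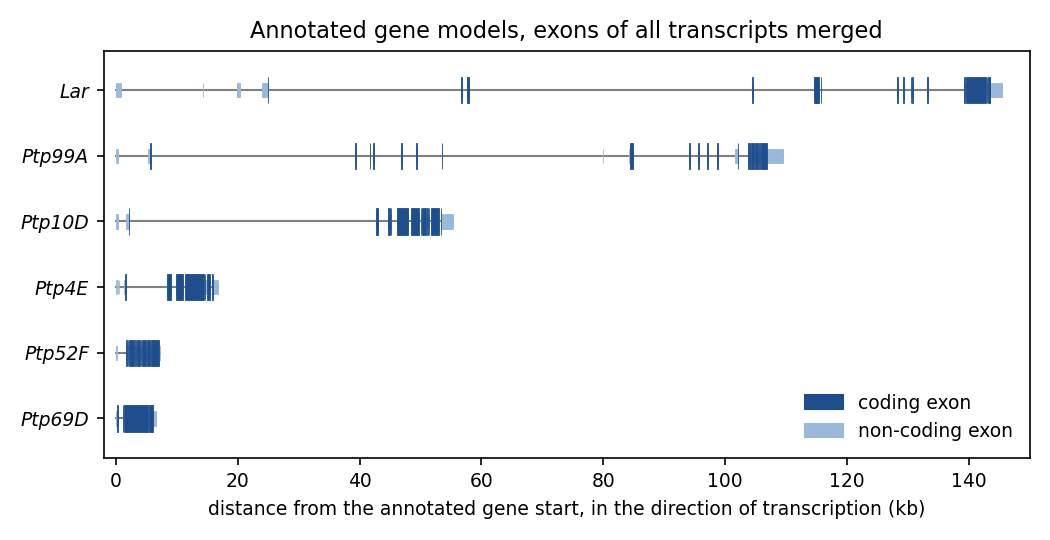
Annotated models of the 6 genes drawn to one scale, in kb from the gene start in the direction of transcription, with coding exons dark and non-coding exons pale, merged over all transcripts. Lar (145 kb) and Ptp99A (109 kb) are mostly intron, while Ptp69D and Ptp52F fit within 8 kb.

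Exons of 2 of the receptor genes overlap those of another gene. CG2321, on the opposite strand, shares 1575 bases of exon with Ptp99A, and the sources used here do not state whether counting kept strand. By the authors' deposited table CG2321 had a mean normalized count of 197 and mean abundances of 0.417 (WT) and 3.72 (dFezf1). Its log2 fold change by the authors' deposited table was 1.80 ± 0.80 (SE, adjusted p = 0.194). The mean normalized count of Ptp99A was 27858. Reads of the shared stretch cannot be told apart, and their part in the change of either gene was not tested. For Lar, with 10.3 kb of exon, the same-strand gene CG46244 shares 8637 bases of exon in the annotation. CG46244 has no row in the deposited comparison, so it could not be analysed here.

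Markers of neurons and of other cell types were read in the same comparison. Of 6 neuronal genes 1 was called, Syn, a synaptic vesicle protein gene (log2 fold change 1.48 ± 0.40, SE, adjusted p = 0.00473, by the authors' deposited table). A positive fold change was listed for 5 of the 6. Of those not called, brp (49.5 in WT and 103 in dFezf1), Syt1 (17.9 and 33.7) and nSyb (44.5 and 68.2) had 95% intervals above 0. The intervals of elav and fne held 0. The summed mean abundance of the 6 neuronal genes by the authors' deposited table stood at 184 in WT and at 289 in dFezf1. Of 8 glial markers 1 was called, gcm, listed at 0 in WT. Its 95% interval of -0.61 to 1.69 holds 0, so that call rests on the p-value alone. A positive fold change was listed for 7 of the 8 by the authors' deposited table. Mean abundances there were 0.262 (WT) and 4.08 (dFezf1) for Gs2 and 0.139 and 1.03 for Gat. The 95% intervals of Gs2 (0.24 to 3.39) and Gat (0.09 to 3.20) lay above 0, but neither was called (adjusted p = 0.119 and 0.285). The summed mean abundance of the glial list was 2.12 in WT and 9.59 in dFezf1 by the authors' deposited table. repo, the defining glial factor gene, stood at 0.162 and 0.356 there. For markers of other lamina neurons the sums of the authors' means were 0.433 and 2.72, with 1 of 5 tested genes called (svp, higher). For 8 photoreceptor markers they were 11.1 and 19.6, most of it norpA (9.55 and 15.9). The 95% interval of norpA (0.07 to 1.60) lay above 0, but it was not called (adjusted p = 0.278). None of 6 tested photoreceptor markers was called by the authors' deposited table, and ninaE and trp were listed at 0 in both groups. For the 8 progenitor markers the sums of the authors' means were 16.2 and 6.64, most of it PCNA (16.0 and 5.38). The other 7 summed to 0.153 and 1.26, and 6 of the 7 tested progenitor markers had a positive fold change by the authors' deposited table. For the 6 blood cell markers the sums of the authors' means were 4.38 and 4.63, nearly all of it Pxn (4.37 and 4.62). None of the progenitor and blood cell markers was called, with wor, He, NimC1 and eater listed at 0 in both groups. The part of any of these in the rise of Ptp99A was not tested. In sorted cells a change in the make-up of the sample and a change in RNA per cell cannot be told apart.

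Genes known to work with these receptors were counted next, in lists of ligands and surface partners, heparan sulfate enzymes and carriers, cytoplasmic partners and kinases, other receptor-type phosphatases and non-receptor tyrosine phosphatases. Over all lists, each gene counted once, 3 of 57 tested genes were higher and 2 lower by the authors' deposited table (8.77% called, against 6.82% of all tested genes), with a median log2 fold change of 0.06.

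Among 13 tested ligands and surface partners, 1 was higher and 1 lower by the authors' deposited table. Sdc, which encodes the syndecan that binds Lar, was abundant and had mean abundances of 80.7 (WT) and 87.8 (dFezf1), with a log2 fold change of 0.20 ± 0.27 (SE, adjusted p = 0.823) by the authors' deposited table. The glypican gene dlp, the other known Lar ligand, was low, at 0.917 and 0.574, with a log2 fold change of -0.45 ± 0.80 (SE, adjusted p = 0.877) by the authors' deposited table. sas, whose product is a ligand of Ptp10D, had mean abundances of 0.00662 (WT) and 0.398 (dFezf1) and an adjusted p of 0.317 by the authors' deposited table. Gp150, a substrate of Ptp10D, was at 0.0045 and 0.00537 by the authors' deposited table. The ligand gene of Lar with the higher level was thus Sdc in both groups of the authors' means, although neither ligand gene was called.

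The called surface genes were caps and robo2. caps, which encodes a leucine-rich-repeat protein that acts in photoreceptor axon targeting, fell by 3.13 ± 0.80 (SE) in log2 units by the authors' deposited table (adjusted p = 0.000242), from a mean abundance of 3.55 to 0.0514. robo2, a receptor gene for the repellent Slit, passed with an adjusted p of 5.43e-07 by the authors' deposited table. It was listed at 0 in WT and at 0.151 in dFezf1 there, at a mean normalized count of 24.4, and the 95% interval of its shrunken fold change, from -0.61 to 1.69, holds 0. The call of robo2 therefore rests on the p-value alone.

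Among 16 tested genes of heparan sulfate, the sugar chain through which Sdc and dlp bind Lar, 0 were higher and 1 was lower by the authors' deposited table. This was sotv, which encodes a chain-lengthening enzyme, with a log2 fold change of -2.42 ± 0.80 (SE, adjusted p = 0.0228) and mean abundances of 1.59 (WT) and 0.0494 (dFezf1) by the authors' deposited table. Its partner enzyme gene ttv had mean abundances of 8.94 and 8.62 and a log2 fold change of 0.03 ± 0.47 (SE, adjusted p = 0.990) by the authors' deposited table.

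Of 20 tested cytoplasmic partners and kinases 2 were higher and 0 lower by the authors' deposited table. Liprin-gamma, one of 3 fly liprin genes on the list, rose by 3.01 ± 0.61 (SE) in log2 units by the authors' deposited table (adjusted p = 2.75e-05), with mean abundances of 0.649 (WT) and 8.28 (dFezf1). Liprin-alpha, the liprin that binds Lar and acts with it in photoreceptor axons, had a log2 fold change of 1.03 ± 0.57 (SE, adjusted p = 0.399) by the authors' deposited table, and Liprin-beta had 0.31 ± 0.59 (SE, adjusted p = 0.891). Btk, a Tec-family tyrosine kinase gene, rose by 1.07 ± 0.24 (SE) in log2 units by the authors' deposited table (adjusted p = 0.000202), from a mean abundance of 31.3 to 62.9.

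The kinase and effectors best known as opponents or targets of these receptors were not called. Abl, the kinase gene that opposes Lar in axon guidance, had mean abundances of 20.9 (WT) and 37.1 (dFezf1) and a log2 fold change of 0.92 ± 0.41 (SE, adjusted p = 0.240) by the authors' deposited table. ena, an actin regulator gene whose product binds Lar and Abl, had a log2 fold change of 0.81 ± 0.46 (SE, adjusted p = 0.423) by the authors' deposited table. trio, which encodes an exchange factor for Rac, had one of -0.13 ± 0.45 (SE, adjusted p = 0.955) there.

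The remaining phosphatases gave no calls. Ptp36E and IA-2, which encode further receptor-type members, had log2 fold changes of 1.23 ± 0.63 and 1.55 ± 0.80 (SE) by the authors' deposited table, with adjusted p of 0.356 and 0.240. Both were low in WT of the authors' deposited table, with mean abundances of 0.988 and 0.0192. None of 9 tested non-receptor tyrosine phosphatases was called by the authors' deposited table, and their median log2 fold change was 0.08.

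**Figure D5:**
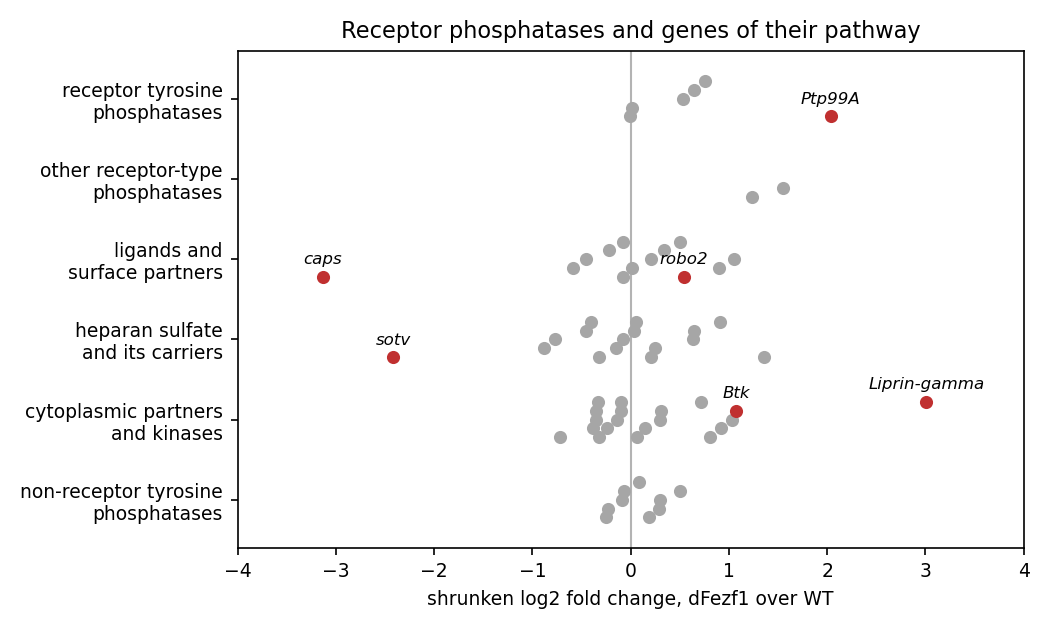
Shrunken log2 fold change of dFezf1 over WT for each tested gene, in rows for the receptor phosphatases and for each list of pathway genes, with called genes in red and named (points are spread vertically only to keep them apart). Calls are few in every row, and Ptp99A, Liprin-gamma, Btk and robo2 lie to the right and caps and sotv to the left.

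The genes most like Ptp99A in level were sought by distance over the 2 group means, on a scale of log2(mean + 1). Since 2 points cannot define a pattern, nearness here means only that a gene sat at about the same level in each group. The nearest was sbb, named only in the deposited table, at a distance of 0.32 and mean abundances of 22.6 (WT) and 93.8 (dFezf1). Other near genes were mamo at 0.45, CG15097 at 0.57 and Moe, which encodes the membrane-to-actin linker moesin, at 0.66. All 4 of these genes were called by the authors' deposited table, each higher in dFezf1.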

How the data were processed

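Total RNA of sorted L3 neurons was made into cDNA libraries with Smart-seq2 and Nextera, per the labels' protocols, from 3 WT and 3 dFezf1 samples. FastQC, STAR, Salmon, DESeq2 and the build BDGP6 appear, with no roles, per the submitters' processing notes. Per the file headers, the authors' deposited table holds a mean normalized count (a signal), a log2 fold change with its SE, a statistic (a score), p-values and adjusted p-values, and group means of an abundance signal. The deposited p-value equals the normal tail of the statistic in 9755 of 9755 genes within 0.001, and the adjusted p equals Benjamini-Hochberg values over 9387 tested genes. In 3798 genes fold change over SE differs from the statistic by 1% or more, as after shrinkage. Count per unit of abundance had a Spearman correlation of 0.942 with exon length across 7863 genes, which are not independent. The median log2 ratio of group means was -0.07 and the median deposited log2 fold change 0.03.

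A further 12 columns of values per library match no sample label and were not used, so edgeR and leave-one-out fits were not run. Where nothing states separate animals, p-values measure the spread between these samples.

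Names came from the gene identifier, or from the deposited symbol for 146 identifiers at most that have none in the name table, and positions from the BDGP6 annotation, whose starts equal the deposited ones in 99.2% of 13503 genes. trol and Syd-1 matched no gene. Intervals are normal at 95%. Named genes were the 6 receptors, called genes of each list and 8 partners by role, erm, and the 5 nearest genes by level, of which 1 is not reported here. CG2321, CG46244, ttv, Liprin-beta, Ptp36E, IA-2 and the cell markers were named beside them after their values were seen. Members and lists were chosen with earlier results of these data known. Adjustment was tested on simulated data. Python 3.11.15, pandas 2.3.3, numpy 2.4.6 and SciPy 1.17.1 were used.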

Additional observations from a re-analysis of the deposited data

How the results depend on the processing

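The count of receptor phosphatase genes called, 1 (Ptp99A, higher), was the same under all 5 alternatives run on the deposited values, and the adjusted p of Ptp99A lay between 1.25e-07 and 2.77e-07 under the 3 that adjust again. The count over the pathway lists was 4 or 5. The count over all genes fell from 640 to 297 where 100 normalized counts or more are required, to 359 where the 95% interval must exclude 0, and to 254 among genes above 0 in both groups; fewer genes can pass in each by construction. Of 94 values for single genes, 92 stayed on their side of the threshold. The others were robo2, whose interval holds 0, and sotv, which passed 0.05 and not 0.01. The 0.01 and interval rules can only remove calls, so genes not called at first could not change side under them. The count of 92 is therefore no measure of robustness. Ptp52F and robo2 have no value at a count of at least 100 or above 0 in both groups, so the call of robo2 was checked under 3 of the 5 alternatives and lost under 1. sas and Gp150 have none at a count of at least 100. edgeR, DESeq2 size factors and leaving out each replicate were not run, because no count column carries a sample's name. No paired analysis was possible because the labels give no replicate numbers and the columns carry none.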
